A study of Mus musculus with 42 samples.

Results

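The genes described here are the receptors for acetylcholine, the monoamines, the opioid peptides, somatostatin and neuropeptide Y, followed across 14 sample groups taken from the forebrain of adult mice. A gene was taken when the single symbol of its probe set named a nicotinic or muscarinic acetylcholine receptor, a serotonin, dopamine, alpha or beta adrenergic or histamine receptor, an opioid receptor, a somatostatin receptor or a neuropeptide Y receptor. The rule found 53 receptor genes on 67 probe sets, out of 12393 genes with a probe set of a single symbol, and used no measured value. Each gene was read on its brightest probe set, the one with the highest mean log2 intensity. Levels are given in full for the 19 genes whose mean intensity reached 400 in at least 1 group, as it did for 61.8% of all genes. Just inside that limit lay Htr5b with a highest group mean of 429.8, Oprl1 with 435.8 and Oprm1 with 442.6. Just outside lay Htr1d with 386.8, Htr3b with 377.9 and Chrnb3 with 367.3.

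RNA was measured on 42 single-colour Affymetrix arrays, 3 per group, and each value is the deposited linear intensity of a probe set in arbitrary units. In 12 groups the array carried amplified RNA of 27 to 120 fluorescent neurons picked by hand from dissociated male brain tissue, and the design states that replicates came from different animals. GIN_Hip and GIN_Cg were GFP cells of hippocampus and cingulate cortex from GIN mice, a line that the labels tie to Gad1, and are labelled as somatostatin interneurons. G42_Cg were GFP cells of cingulate cortex from G42 mice, labelled as parvalbumin interneurons, and G42_LGN were GFP interneurons of the lateral geniculate nucleus, a visual nucleus of the thalamus, from the same line. G30_Cg and G30_SS were GFP interneurons of cingulate and somatosensory cortex from G30 mice. YFPH_Cg and YFPH_SS were YFP pyramidal neurons of cortical layer 5, and YFPH_Hip were YFP pyramidal neurons of hippocampus, all from YFPH mice. CT6_Cg were layer 6 pyramidal neurons of C57BL/6j mice that had taken up fluorescent beads injected in the medial dorsal thalamus. YFPH_Amy and G30_Amy were YFP and GFP cells of the amygdala whose labels name no cell class. GIN_Homog_Cg and G42_Homog_Cg held unsorted tissue of cingulate cortex. Most line mice were mixed with C57BL/6j, some arrays pooled several animals, and a line sees only the cells in which its transgene is active. Mice of YFPH_Hip and YFPH_Amy were at least 91 days old and those of the other sorted groups 57 to 86 days where the labels give an age, which they do not for YFPH_Cg array 3, so age and region cannot be told apart where YFPH_Hip or YFPH_Amy is set against YFPH_Cg. Several comparisons share a group (YFPH_Cg, G42_Cg, GIN_Cg or G30_Cg) and are not independent of each other. Apart from the class comparison, both sides shared a scan day only for YFPH_SS and YFPH_Cg, G30_SS and G30_Cg, and sorted and unsorted cingulate cortex. In the other comparisons, and in interactions built on them, scan day cannot be told apart from cell type, region or line.

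These receptors let neurons respond to transmitters released from long-range fibres and from peptide-containing interneurons. Nicotinic receptors and the receptor built on Htr3a are channels of several subunits that open to cations and depolarise the cell. All other families here are receptors that act through G proteins: some couple to inhibitory Gi and Go proteins (Sstr2, Npy2r, Hrh3, Adra2c and the opioid receptors), others to Gq (Chrm1, Chrm3, Hrh1) or to Gs (Hrh2). In cortex the somatostatin and neuropeptide Y peptides are made mainly by interneurons, and the channel containing Htr3a is a known marker of cortical interneurons outside the parvalbumin and somatostatin classes.

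Sstr2 and Npy2r were the genes with the widest ranges over sorted groups among those with an entry in the RefSeq promoter table, which held 40 of the 53 receptor genes. Their 250 bases before the gene start (build GRCm38.p6, from RefSeq) are shown for that reason, at chr11:113619077-113619326 on the plus strand and at chr3:82548086-82548335 on the minus strand. Capitals mark matches on either strand to TATAAA (the TATA box), GGGCGG (a GC box, CCGCCC on the other strand), TGACGTCA (the full cAMP response element) or TAATTA (a homeodomain core).
Sstr2: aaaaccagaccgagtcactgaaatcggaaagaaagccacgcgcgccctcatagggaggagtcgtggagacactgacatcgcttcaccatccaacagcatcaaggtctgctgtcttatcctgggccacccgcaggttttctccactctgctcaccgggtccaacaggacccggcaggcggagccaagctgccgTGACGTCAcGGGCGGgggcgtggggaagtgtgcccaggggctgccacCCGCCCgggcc
Npy2r: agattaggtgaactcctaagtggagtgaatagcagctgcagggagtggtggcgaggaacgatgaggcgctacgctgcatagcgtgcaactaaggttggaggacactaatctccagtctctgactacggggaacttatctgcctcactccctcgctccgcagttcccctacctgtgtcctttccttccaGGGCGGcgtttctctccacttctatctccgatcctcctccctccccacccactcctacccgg
The Sstr2 stretch held 1 copy of TGACGTCA, starting at position -58 counted from the gene start, and 2 of GGGCGG. Npy2r held 1 copy of GGGCGG. Neither held TATAAA or TAATTA. A further motif searched on both strands, CANNTG (the E box, left in lower case), was found 1 time in Npy2r and not in Sstr2. Over all 32851 promoters of the same length in the table, TGACGTCA was held by 1.55%, GGGCGG by 32.7%, TATAAA by 12.4%, TAATTA by 4.84% and CANNTG by 66.2%. The matches describe these letters only.

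The labels were checked against markers. The summed intensity of 4 interneuron markers (Gad1, Gad2, Slc32a1 and Dlx1) lay between 14017 and 17336 on the arrays of the 6 interneuron groups and between 415.33 and 797.61 on those of the 4 pyramidal groups. The amygdala groups ran from 415.42 to 2291.8 on that sum and from 14652 to 17063 on the sum of 6 pyramidal markers, against 11636 to 22406 in the pyramidal groups. Sst was at 17810.0 ± 675 (SD, n = 3) in GIN_Cg, Pvalb at 10920.0 ± 354 in G42_Cg and 625 ± 149 in G42_LGN, and Vip at 5746 ± 1135 in G30_Cg. Some values went against the labels: Pvalb was at 4330.0 ± 2002 in the pyramidal group YFPH_SS and 3402 ± 779 in GIN_Hip, Sst at 4525 ± 3979 in G30_SS, and the pyramidal sum reached 4782.6 in G30_SS. Astrocyte markers, 8 of 8 measured, summed to 1767.7 to 9520.6 on sorted arrays and 23678 to 32402 on unsorted ones. One pyramidal marker, Camk2a, did not separate the groups (107 to 152 in pyramidal and 113 to 146 in interneuron groups), so a flat probe set is a statement about that probe set. Array records mark YFPH_Hip array 1 and YFPH_Amy array 2 as abnormally amplified and YFPH_Cg array 3 as sorted by a new method.

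On their brightest probe sets most receptor genes differed little between neuron types, and a handful differed a great deal. Dimmer sets of Chrna3, Npy5r and Oprl1 had wider ranges than the brightest and are described below. The range over the 12 sorted groups, from the lowest to the highest group mean on the log2 scale of intensity plus 16, had a median of 0.477 over the 53 receptors and of 0.61 over all 12393 genes. It reached 1, a doubling, in 6 receptors (11.3%) and in 21.4% of all genes. Those 6 were Sstr2 with a range of 4.25, Chrna6 with 3.58, Htr3a with 3.20, Npy2r with 3.05, Htr5b with 1.49 and Oprd1 with 1.01, a gene below the intensity limit that is named after its values were seen. An F test in limma for any difference among the sorted groups called 34 of 53 receptors at a Benjamini-Hochberg adjusted p below 0.05, against 75.2% of all genes. All 6 of the wide ones were among the called, as were 2633 of the 2657 genes with such a range. Genes both called and this wide made up 11.3% of the receptors and 21.2% of all genes. Of the 19 genes described in full, 13 were called and 6 (Chrm1, Chrm3, Chrna4, Chrnd, Htr1a and Htr1b) were not. These genes were taken by their highest group mean, so a gene could pass the intensity limit through a single high group. Htr5b had a highest group mean of 429.8 in YFPH_Hip and a lowest of 135.0 in G30_SS. The count of 13 therefore depends in part on that choice.

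**Figure D1:**
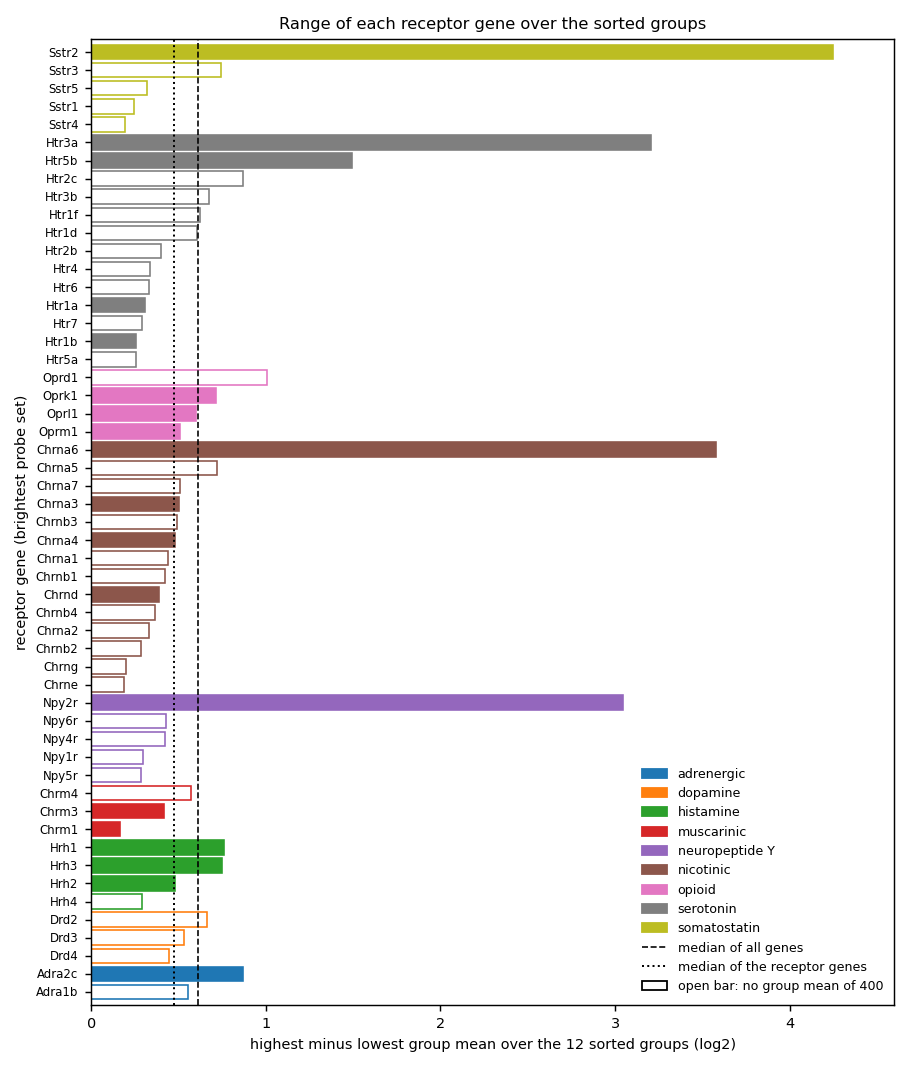
Range of each receptor gene over the 12 sorted groups, as the highest minus the lowest group mean on the log2 scale, with 1 bar per gene coloured by family. Filled bars are the 19 genes with a group mean of 400 or more, and the lines mark the median of the receptors (0.477) and of all genes (0.61). Single genes of 4 families, Sstr2, Htr3a, Chrna6 and Npy2r, stand beyond 3 while most bars end below 1.

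**Figure D2:**
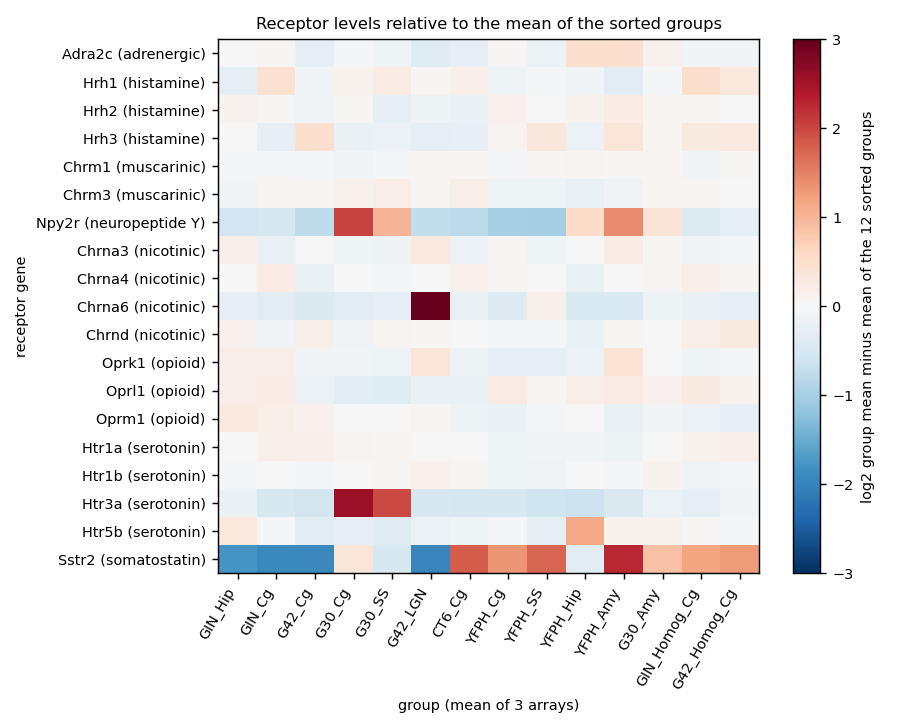
Level of the 19 receptor genes in each of the 14 groups, as the log2 group mean of 3 arrays minus the mean of the 12 sorted groups. Colour runs from blue (lower) to red (higher), and strong colour is limited to Sstr2, Npy2r, Htr3a, Chrna6 and Htr5b. The genes were taken by their highest group mean, so which genes show strong colour depends in part on that choice.

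Only 2 receptors stood above all 11 remaining sorted groups in a single group (the weakest of the 11 limma comparisons was taken, and its p adjusted for every gene and group), against 1.4% of all genes. Chrna6 stood 2.96 log2 units above the next group in G42_LGN (adjusted p = 2.81e-18). Htr5b stood 0.81 above the next group in YFPH_Hip (adjusted p = 0.0136), and without the 3 arrays marked as unusual that adjusted p was 0.188. The call was lost without any one of GIN_Hip array 1, YFPH_Hip array 1 and YFPH_Hip array 2.

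On the brightest probe sets, Chrna6 was the single nicotinic gene with a range of at least 1. The F test called 8 of the 14 nicotinic genes, against 75.2% of all genes. Chrna6 encodes an alpha subunit known from dopamine neurons and the visual pathway. The G42_LGN arrays read 2080.1, 2156 and 2254, while the arrays of the other 13 groups read 145 to 325. The lowest G42_LGN array was thus several times the highest array elsewhere. Against G42_Cg, the cortical group of the same line, the difference was 3.56 ± 0.12 log2 units (SE, 3 arrays per group, limma adjusted p = 4.66e-22). In that comparison 7 of 53 receptors were called, 5 higher and 2 lower, against 21.3% of all genes (11.8% and 9.53%). The log2 ratio of 3' to 5' Gapdh signal, which reflects RNA quality and amplification, averaged 2.89 in G42_LGN and 1.98 in G42_Cg. With that signal as a covariate, Chrna6 had a difference of 3.41 (adjusted p = 5.6e-19), and 3 receptors were called.

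Chrna6 was also the single receptor called between YFPH_SS and YFPH_Cg (1 of 53, against 1.23% of all genes), at 0.56 ± 0.12 with an adjusted p of 0.0109 in limma. YFPH_SS read 198, 325 and 285 and YFPH_Cg 163, 159.6 and 203, so the groups overlapped by 1 array. Pvalb, the parvalbumin interneuron marker, was also higher in YFPH_SS (4330.0 ± 2002, SD, n = 3) than in YFPH_Cg (422 ± 44.3), and Slc32a1, an inhibitory marker, read 226 to 603 in YFPH_SS and 211 to 236 in YFPH_Cg. Their part in the result was not tested. Without YFPH_SS array 2 the difference was 0.42 (adjusted p = 0.19), and the call was also lost without YFPH_Cg array 1 or 2 or YFPH_SS array 3. Without the 3 unusual arrays the adjusted p was 0.00886.

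The other nicotinic genes with a mean of 400 or more were nearly level on their brightest probe sets. A second, dimmer set of Chrna3 had a range of 2.26 and is described below with other such sets. Chrna3, a subunit of receptors in autonomic ganglia and the habenula, read 750.0 ± 46.8 (SD, n = 3) in G42_LGN and 529.5 ± 91.2 in GIN_Cg, the highest and lowest groups. In GIN_Hip it read 549.9, 833 and 744 and in GIN_Cg 508, 451 and 629, a difference of 0.40 ± 0.12 (adjusted p = 0.0183) with overlapping arrays. Without GIN_Hip array 2 the adjusted p was 0.167, and the call was also lost without GIN_Hip array 3 or GIN_Cg array 1 or 2. Chrna4, part of the main high-affinity receptor of the brain, read 672, 803 and 764 in GIN_Cg and 513, 535 and 543 in G42_Cg, a difference of 0.48 ± 0.13 (limma adjusted p = 0.00644). Its arrays did not overlap in that comparison, while the F test over all sorted groups gave an adjusted p of 0.0951. Chrnd, a subunit of the receptor of adult and embryonic muscle, read 466 to 878 over the 42 arrays and was not called (F test adjusted p = 0.646). The 10 nicotinic genes that never reached 400 had group means from 63.14 to 367.3. Chrnb3, a subunit often found with Chrna6 and encoded next to it in GRCm38.p6, had its highest mean in G42_LGN as well. There it read 363, 416 and 323, within the 226 to 369 of the other groups except for array 2.

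Muscarinic receptors showed no called difference among sorted groups at the levels given in full. Chrm1, the main Gq-coupled muscarinic receptor of forebrain pyramidal cells, read 420.1 to 529 over all 42 arrays, with a range of 0.17 between sorted group means (F test adjusted p = 0.457). Chrm3, which couples the same way, read 278 to 517 (adjusted p = 0.138). The third muscarinic gene, Chrm4, had group means from 139.9 to 216.8, all below the limit. It was called by the F test (adjusted p = 0.000112), against 75.2% of all genes.

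Serotonin receptors held a pair of genes with very uneven levels. Htr3a encodes the subunit that every serotonin-gated channel needs. It read 2294, 2186 and 2603 in G30_Cg and 1386, 2250.4 and 1210.1 in G30_SS, and 236 to 399 on the arrays of the other 12 groups, unsorted tissue included. No array of the G30 cortical groups came near the others. G30_Cg exceeded the mean of GIN_Cg and G42_Cg by 3.09 ± 0.12 log2 units (limma adjusted p = 8.18e-21). Between the cortical areas the G30 groups overlapped, and Htr3a was not called there (-0.59 ± 0.14, adjusted p = 0.0525). The GFP cells of the amygdala from the same line read 316, 354 and 339.8, which was -2.75 ± 0.14 relative to G30_Cg (adjusted p = 2.17e-17). Vip, a peptide of one class of cortical interneurons, moved with it, at 3435 to 8321 in the G30 cortical groups and 157 to 171 in G30_Amy.

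Htr5b, a G protein-coupled serotonin receptor that is functional in rodents, was highest in hippocampal pyramidal neurons. YFPH_Hip read 443, 589 and 257, the other 13 groups 123 to 264, so array 3 of YFPH_Hip lay inside the range of the rest. Against YFPH_Cg the difference was 1.17 ± 0.16 (limma adjusted p = 2.43e-06). GIN_Hip, the somatostatin interneurons of the same region, read 169, 264 and 253, with 2 arrays above every array of GIN_Cg, and was not called against GIN_Cg (0.34 ± 0.16, adjusted p = 0.159). YFPH_Hip array 1, at 443, is one of the arrays marked as abnormally amplified, and without the 3 unusual arrays the difference from YFPH_Cg was 1.14 (adjusted p = 0.000352).

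The inhibitory serotonin receptors Htr1a and Htr1b were level on their brightest probe sets. Htr1a, which opens potassium channels and lowers firing, read 648 to 1003 over the 42 arrays, and Htr1b, found on axon endings, read 392 to 546. The F test gave adjusted p-values of 0.104 and 0.103. For Htr1a the pyramidal minus interneuron difference was -0.15 ± 0.05 (limma adjusted p = 0.01), with arrays of the classes overlapping. With scan year as a block that difference was 0.03 and was not called. A second, dimmer probe set of Htr1a, named after its values were seen, had a range of 0.79 over sorted groups. Its group means ran from 202.1 in G42_Cg, the highest group on the brightest set, to 375.7 in GIN_Hip. The 9 serotonin receptors that stayed below 400 had group means from 42.97 to 386.8. Htr3b, the other subunit of the serotonin-gated channel and a neighbour of Htr3a in GRCm38.p6, did not follow Htr3a, a point chosen after its values were seen. It read 249, 227 and 215 in G30_Cg, 243, 204 and 241 in G30_SS and 443, 361 and 331 in G30_Amy, highest where Htr3a was low. Htr2c was the single receptor called between G30_SS and G30_Cg (1 of 53, against 0.194% of all genes), at -0.70 ± 0.15 (adjusted p = 0.0352), on intensities of 43.8 to 57.8 and 77.3 to 115. Without G30_Cg array 3 its adjusted p was 0.336.

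**Figure D3:**
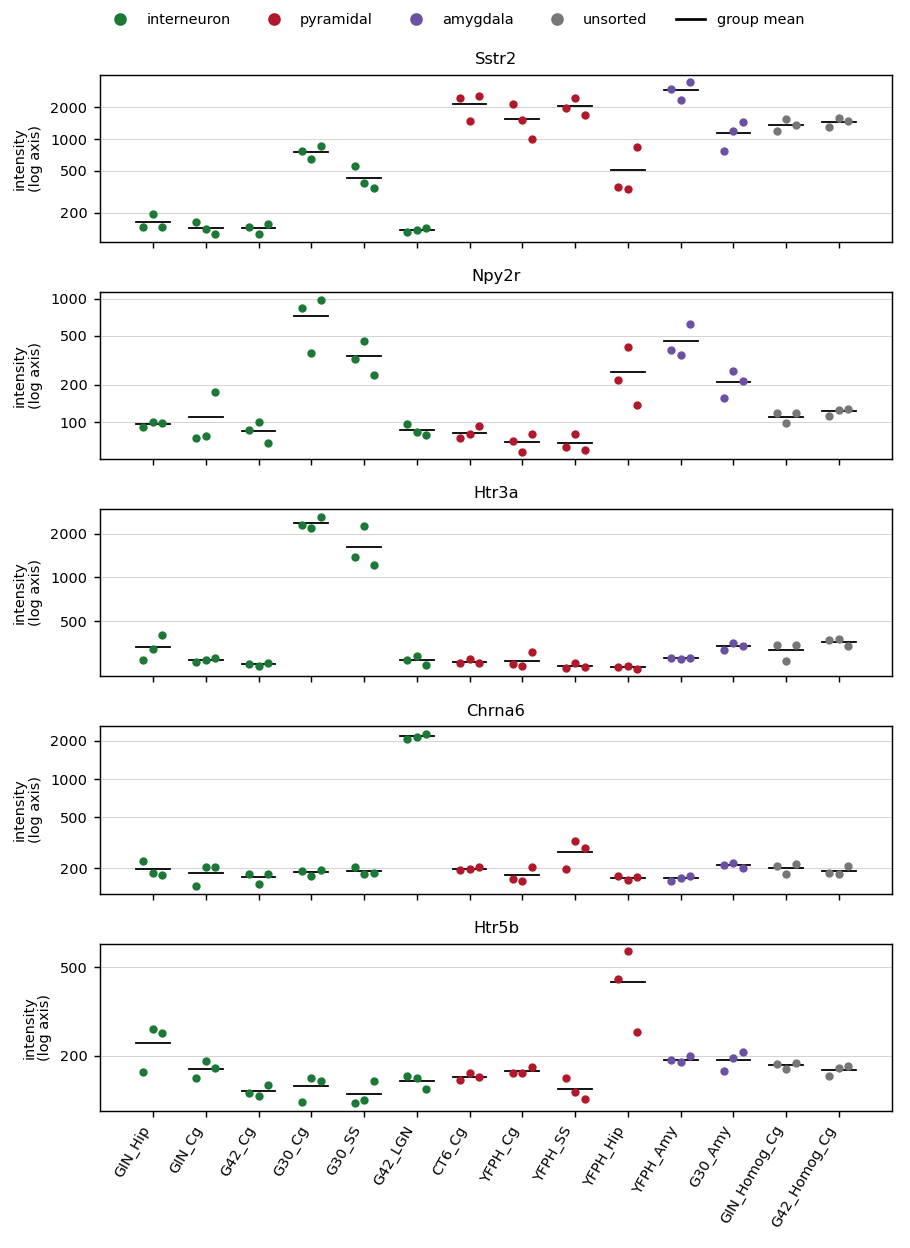
Intensity on each of the 42 arrays of the 5 receptor genes with the widest ranges among those described in full, with intensity on a log axis and the 14 groups along the other. Each point is 1 array, coloured by class, and each bar is a group mean. Chrna6 is high in G42_LGN only, Htr3a in G30_Cg and G30_SS only, and Sstr2 is near its lowest level in 4 of the 6 interneuron groups.

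Sstr2, the inhibitory receptor for somatostatin with the widest range of all 53 genes, was high in cortical pyramidal cells and low in most interneurons. It read 2478, 1494 and 2551 in CT6_Cg, 2144, 1520.4 and 1000.4 in YFPH_Cg and 1955, 2471 and 1710.5 in YFPH_SS. In GIN_Hip, GIN_Cg, G42_Cg and G42_LGN all 12 arrays read 125 to 194, so the cortical pyramidal groups and these 4 groups did not overlap. Interneurons of the G30 line stood between, at 763, 649 and 868 in G30_Cg and 557, 384 and 342 in G30_SS. The mean of the 4 pyramidal groups exceeded the mean of the 6 interneuron groups by 2.43 ± 0.12 log2 units (limma adjusted p = 2.8e-18). Over all arrays of a class, Sstr2 read 332.5 to 2551 in pyramidal and 124.6 to 867.5 in interneuron groups. The classes thus overlapped, through YFPH_Hip and the G30 groups. With each group mean as a single replicate the adjusted p was 0.0355, and with scan year as a block the Sstr2 difference was 2.31 (adjusted p = 5.38e-11). Each class had 1 array on each of 2 shared scan days, and Sstr2 was higher in the pyramidal array by 0.38 on one and 2.80 on the other. On both days the interneuron array came from the G30 line. RNA was pooled over cells of a group, so fewer cells with a transcript and less transcript per cell cannot be told apart.

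Within the interneurons, Sstr2 in G30_Cg exceeded the mean of GIN_Cg and G42_Cg by 2.28 ± 0.23 (limma adjusted p = 2.23e-09). Within the pyramidal groups the hippocampus stood apart: YFPH_Hip read 351, 332 and 848, -1.64 ± 0.27 relative to YFPH_Cg (adjusted p = 4.2e-05), with no overlap, and -1.73 without the 3 unusual arrays (adjusted p = 0.000266). YFPH_Amy read 3021, 2336 and 3453, higher than YFPH_Cg by 0.96 ± 0.27 (adjusted p = 0.0238), and that p was 0.247 without YFPH_Cg array 3 and 0.166 without the 3 unusual arrays. G30_Amy read 769.5, 1199.7 and 1447. Unsorted cingulate tissue read 1208 to 1573, and sorted GIN_Cg and G42_Cg lay -3.17 ± 0.19 from it (adjusted p = 7.69e-16). Pyramidal markers moved with that comparison, with sums of 12634 to 16168 in unsorted tissue and 715.17 to 2234 in GIN_Cg and G42_Cg, and their part in the result was not tested. The ligand precursor Sst read 10310.0 to 18310.0 in the GIN groups, 1552 to 3139 in G30_Cg, 1171 to 8922 in G30_SS, 611 to 1095 in G42_Cg and 375 to 432 in G42_LGN, against 316 to 720.3 in pyramidal groups. Low Sstr2 thus went with high Sst in the GIN groups but with an Sst level within the pyramidal range in G42_LGN. The other 4 somatostatin receptors stayed between 133.5 and 354.1, and Sstr1, Sstr4 and Sstr5 were not called by the F test.

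Npy2r, an inhibitory receptor for neuropeptide Y that often sits on axon endings, was high in both G30 cortical groups and in YFPH_Amy. G30_Cg read 836, 364 and 982 and G30_SS 327, 452 and 242. YFPH_Amy read 380.5, 353 and 626, YFPH_Hip 219, 409 and 138 and G30_Amy 157, 258 and 215. The other 9 groups read 57.7 to 176, and GIN_Cg array 3 gave the upper end of that range. By mean the order was G30_Cg, YFPH_Amy, G30_SS, YFPH_Hip and G30_Amy. Each of these overlapped the next, and array 3 of YFPH_Hip and array 1 of G30_Amy lay within the range of the lower groups. G30_Cg exceeded the mean of GIN_Cg and G42_Cg by 2.66 ± 0.26 (limma adjusted p = 7.14e-10). YFPH_Amy and YFPH_Hip exceeded YFPH_Cg by 2.42 ± 0.30 (adjusted p = 2.88e-07) and 1.55 ± 0.30 (adjusted p = 0.000446), and without the 3 unusual arrays by 2.66 and 1.68, both still called. G30_Amy differed from G30_Cg by -1.63 ± 0.30 (adjusted p = 8.08e-05). The precursor of its ligand, Npy, read 8882 to 12760.0 in the G30 cortical groups, 6310.0 to 15030.0 in the GIN groups and 237 to 408 in pyramidal groups. Of the other neuropeptide Y receptors, Npy1r, Npy4r, Npy5r and Npy6r had group means from 78.34 to 298.9 on their brightest probe sets.

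The 4 opioid receptors were all called by the F test, against 75.2% of all genes. Their median range was 0.657, near the median of 0.61 over all genes. Oprk1, the kappa receptor for dynorphins, was highest in YFPH_Amy at 594, 658 and 638 and G42_LGN at 606, 572 and 646, and lowest in YFPH_Cg at 359, 360.2 and 414. YFPH_Amy exceeded YFPH_Cg by 0.72 ± 0.13 (limma adjusted p = 0.000253) without overlap, and by 0.75 without the 3 unusual arrays (adjusted p = 0.00438). G42_LGN exceeded G42_Cg by 0.44 ± 0.13 (adjusted p = 0.0125), and the adjusted p was 0.0897 without G42_Cg array 3 and 0.202 with the Gapdh covariate. Oprm1, the mu receptor, had its highest mean in GIN_Hip (400.0, 492 and 436) and its lowest in unsorted G42 tissue (307, 280.1 and 310.0), and sorted cingulate interneurons lay 0.38 ± 0.08 above unsorted tissue (adjusted p = 0.000499). Averaged over its 3 probe sets that difference was -0.0045. Oprl1, the nociceptin receptor, had group means between 275 ± 13.2 in G30_SS and 436 ± 4.29 in GIN_Homog_Cg (SD, n = 3). Oprd1, the delta receptor for enkephalins, stayed below 400 and is named after its values were seen. It read 156, 166 and 156 in GIN_Hip, 115, 172 and 129 in G42_Cg and 71.9, 69.2 and 72.5 in YFPH_SS, its lowest group, and YFPH_SS overlapped neither of the others. Over all arrays of a class, Oprd1 read 63.6 to 172 in interneuron and 69.2 to 132.4 in pyramidal groups, so the classes overlapped.

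Histamine receptors gave the largest called differences between GIN_Cg and G42_Cg among the genes described in full, in opposite directions. Hrh3, an inhibitory receptor on axon endings and cell bodies, read 719, 856 and 819 in G42_Cg, 429, 520.3 and 476 in GIN_Cg and 473, 475 and 455 in G42_LGN. It was lower in GIN_Cg (-0.73 ± 0.11, limma adjusted p = 8.46e-06) and in G42_LGN (-0.75 ± 0.11, adjusted p = 4.5e-06) than in G42_Cg, with no overlap in either. Hrh1, the excitatory Gq-coupled receptor, read 828, 829 and 766 in GIN_Cg, 555, 623 and 479 in G42_Cg and 551, 426 and 459.6 in GIN_Hip. It was higher in GIN_Cg than in G42_Cg (0.54 ± 0.11, adjusted p = 0.000537) and lower in GIN_Hip than in GIN_Cg (-0.74 ± 0.11, adjusted p = 1.76e-05), again with no overlap. Hrh1 has a second, dimmer probe set, named after its values were seen, that read 121, 111 and 122 in GIN_Cg, 133, 139 and 113 in G42_Cg and 128, 128 and 149.8 in GIN_Hip. On it neither difference was called, and both had the opposite sign (-0.11 ± 0.09 and 0.18 ± 0.09, limma adjusted p = 0.428 and 0.224). Averaged over both sets the Hrh1 differences were 0.22 (adjusted p = 0.0254) and -0.28 (adjusted p = 0.00803). Gapdh 3' to 5' log2 signal was 3.21 in GIN_Cg, 1.98 in G42_Cg and 2.43 in GIN_Hip. With it as a covariate Hrh3 kept its call between GIN_Cg and G42_Cg (adjusted p = 0.000641) and in that comparison Hrh1 had an adjusted p of 0.188. Hrh2, the Gs-coupled receptor, read 262 to 510.1 over the 42 arrays, and Hrh4 stayed between 126.2 and 158.1.

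Of the adrenergic and dopamine receptors only Adra2c reached 400. Adra2c, an inhibitory noradrenaline receptor, read 717, 723 and 685 in YFPH_Amy and 740.4, 740.0 and 593 in YFPH_Hip, above all YFPH_Cg arrays (519, 501 and 482). The differences were 0.49 ± 0.13 (limma adjusted p = 0.0149) and 0.45 ± 0.13 (adjusted p = 0.0237). Without the 3 unusual arrays the adjusted p-values were 0.17 and 0.194. Adra1b had group means from 171.5 to 260.4. Drd2, Drd3 and Drd4, the dopamine genes measured, had group means from 99.45 to 289.9, and all 3 were called by the F test, against 75.2% of all genes. The Drd3 call (adjusted p = 0.0443) was lost in 29 of 45 alternatives, among them 23 of the 36 that leave out 1 array.

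The share of receptors called was below the share of all genes called in 7 of the 12 comparisons. Between the pyramidal and interneuron classes 21 of 53 were called, 5 higher and 16 lower in pyramidal groups, against 45.1% of all genes (18.7% higher and 26.4% lower). The median difference was -0.0602 over the receptors and -0.0325 over all genes. With each group mean as a single replicate 2 receptors were called, and 5 with scan year as a block. Calls over all genes moved with the settings too, from 5592 in the main fit to between 568 and 6621 in alternatives that keep all arrays or drop several. The earliest scan year held all YFPH_Hip arrays and most of YFPH_Cg and YFPH_SS, but no interneuron array. For those arrays class and scan year cannot be told apart. Those higher among the genes described in full were Sstr2, Htr5b and Adra2c (0.14 ± 0.06, adjusted p = 0.0476). The Adra2c call was lost in 26 of 43 alternatives, 20 of them among the 30 that leave out 1 array, and on both shared scan days the pyramidal array was the lower (-0.115 and -0.305). Without the 3 unusual arrays 22 receptors were called between classes, with Sstr2 at 2.55 and Adra2c no longer called (adjusted p = 0.0903). Those lower were Htr3a (-1.03 ± 0.06), Npy2r (-0.64 ± 0.13), Chrna6 (-0.48 ± 0.06), Oprk1 (-0.30 ± 0.06), Oprm1 (-0.21 ± 0.05) and Htr1a. Htr3a and Npy2r were high in the 2 G30 groups and Chrna6 in 1 of the 6 interneuron groups, and Htr5b was high in YFPH_Hip among the 4 pyramidal groups, so these class differences do not describe a whole class. Sstr2 also overlapped between the classes, through YFPH_Hip and the G30 groups. Over arrays, Htr5b had a median of 168 in the pyramidal and 157.3 in the interneuron class. On the 2 scan days that held both classes, 25 of the 42 values of the called receptors had the direction of the pooled difference. Those days set G30_Cg array 1 against YFPH_Cg array 3 and G30_SS array 3 against YFPH_SS array 2. The same-day values, those of Adra2c included, thus cover no interneuron line but G30.

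Between GIN_Cg and G42_Cg 12 receptors were called, 11 higher and 1 lower in GIN_Cg, against 27.2% of all genes (17.7% and 9.5%), and the largest was that of Hrh3. With Gapdh 3' to 5' signal as a covariate 5 were called. Between G30_Cg and the mean of GIN_Cg and G42_Cg 9 were called, 4 higher and 5 lower, against 14.3% of all genes (6.68% and 7.59%). Htr3a, Npy2r and Sstr2 were among the higher, and Hrh3 was lower (-0.33 ± 0.10, limma adjusted p = 0.02), a call lost without GIN_Cg array 2 or G30_Cg array 2 or 3. CT6_Cg differed from YFPH_Cg in 2 receptors, against 10.4% of all genes, both below the intensity limit and named after their values were seen: Chrna5 (0.51 ± 0.14) and Sstr3 (-0.51 ± 0.17). Leaving out 1 of the 6 arrays ended the Chrna5 call in 3 cases and the Sstr3 call in 4. Without the 3 unusual arrays they were 0.54 and -0.61, both called. YFPH_Hip differed from YFPH_Cg in 5 receptors, against 8.09%, and GIN_Hip from GIN_Cg in 6, against 15%. YFPH_Amy differed from YFPH_Cg in 6 receptors, all higher, against 5.35% of all genes (2.95% higher). G30_Amy differed from G30_Cg in 5, against 21%. Sorted GIN_Cg and G42_Cg differed from unsorted tissue in 8 receptors, 4 in each direction, against 35.8% of all genes (18.3% higher and 17.5% lower). Besides Sstr2 and Oprm1 these included Htr3a (-0.35 ± 0.10) and Hrh1 (-0.24 ± 0.08), both lower in sorted cells with overlapping arrays.

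Whether a regional difference depended on the line was fitted as an interaction. In cortex and hippocampus YFPH cells were pyramidal and GIN and G30 cells interneurons, so line and cell class cannot be told apart. Mice of YFPH_Hip and YFPH_Amy were also older, so age and region cannot be told apart in interactions that use them. For hippocampus against cingulate cortex 9 receptors differed between YFPH and GIN cells, against 16.8% of all genes. For amygdala against cingulate cortex 5 differed between YFPH and G30 cells, against 9.13%. For somatosensory against cingulate cortex 0 of 53 were called by limma, against 0.436% of all genes. At an unadjusted p below 0.05 there were 7, a count without a share of all genes beside it, so nothing is read from it.

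**Figure D4:**
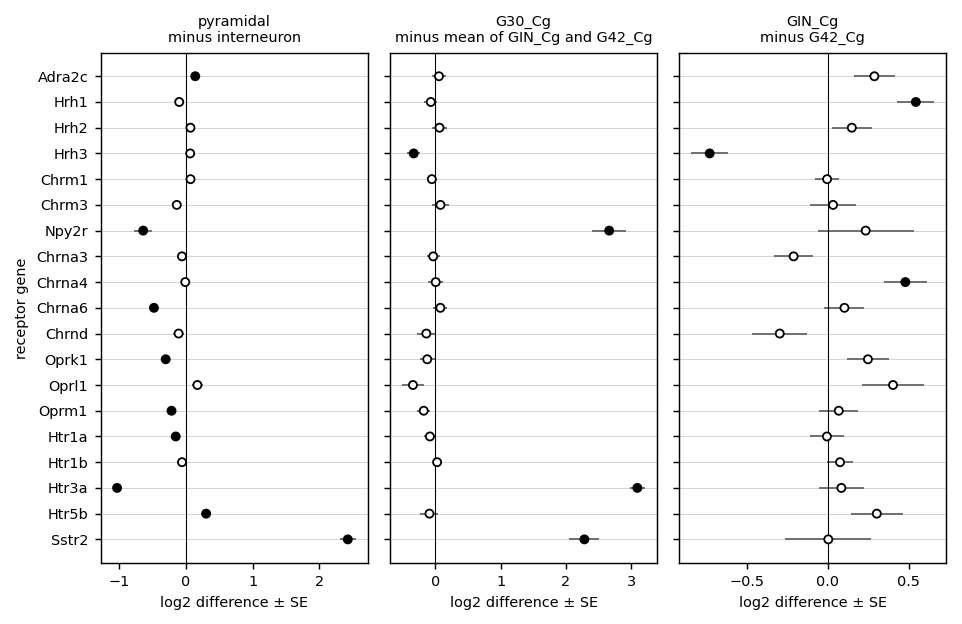
Fitted log2 differences of the 19 receptor genes in 3 comparisons, with SE bars and a separate horizontal scale for each. Filled points have an adjusted p below 0.05. Sstr2 is the widest point in the class comparison, and Htr3a, Npy2r and Sstr2 stand alone on the right when G30_Cg is set against the other cingulate interneurons.

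Some genes have more than 1 probe set, and the choice of the brightest decided what was seen. The 11 genes with several sets had 14 dimmer ones, of which 3 had a range of at least 1 over sorted groups where the brightest set of the same gene did not. These were looked at after their values were seen. The second set of Chrna3 read 384, 266 and 471 in G42_LGN and 53.5 to 108 elsewhere, a difference of 2.26 ± 0.16 from G42_Cg (limma over every probe set, adjusted p = 2.59e-13). That is the group in which Chrna6 was high, and the brightest set of Chrna3 differed there by 0.29 ± 0.12 (adjusted p = 0.0791). The second set of Npy5r read 237, 299 and 305 in G30_Cg and 288, 257 and 346 in YFPH_Hip, with 40.5 to 89.8 in the GIN and G42 groups. G30_Cg exceeded the mean of GIN_Cg and G42_Cg by 1.79 ± 0.19 on it (adjusted p = 7.19e-09). Oprl1 read 346, 354 and 322 in YFPH_Amy on its second set and 63.7 to 139 in the G30 cortical groups, and pyramidal groups exceeded interneuron groups by 0.74 ± 0.11 (adjusted p = 1.09e-06). In the other direction, the second set of Chrna6 read 87.5 to 145 over all 42 arrays and did not follow the first.

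**Figure D5:**
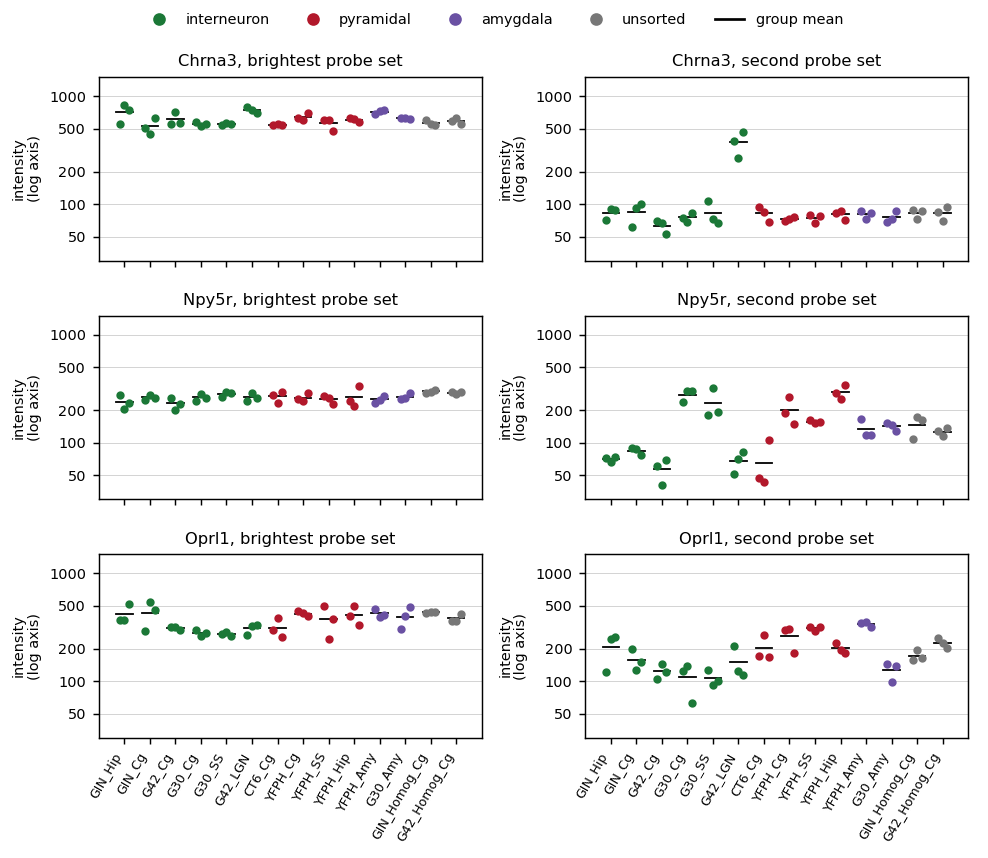
Intensity on each array for the brightest (left) and second probe set (right) of Chrna3, Npy5r and Oprl1, on log axes with the same limits. Points are arrays coloured by class and bars are group means. On the right Chrna3 is high in G42_LGN and Npy5r has its highest means in YFPH_Hip, G30_Cg and G30_SS, while the left panels vary less.

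The genes that supply or carry out the signals of these receptors were counted list by list. Of 9 peptide precursors, 8 were called by the F test against 75.2% of all genes, and their median range was 2.75 log2 units, against 0.61. Between classes, where 18.7% of all genes were called higher and 26.4% lower in pyramidal groups, 4 were lower in pyramidal groups and 0 higher: Npy (-3.83 ± 0.16, limma adjusted p = 2.49e-20) and Sst (-2.83 ± 0.16, adjusted p = 1.39e-16) had the largest differences. Of 5 proteins that chaperone or bind nicotinic receptors, all were called by the F test, with a median range of 2.28. Lypd1, a brake on nicotinic receptors, was higher in pyramidal groups by 2.28 ± 0.14 (adjusted p = 7.51e-16). Among 17 RGS proteins, receptor kinases and arrestins, which shut G protein signals off, 4 were higher in pyramidal groups and 8 lower. Rgs4 had the largest difference upwards (2.51 ± 0.13, adjusted p = 4.62e-18) and Rgs8 the largest downwards (-2.22 ± 0.11, adjusted p = 2.38e-18). Of 4 GIRK channel genes, which several of these receptors open, 1 was higher and 2 were lower, with Kcnj9 at -1.30 ± 0.19 (adjusted p = 1.23e-06). Of 11 G protein alpha subunits 3 were higher and 2 lower, and of 10 adenylyl cyclases and phospholipases C 3 were higher and 2 lower, both near the 45.1% of all genes called. Of 7 genes for transmitter synthesis and vesicle loading 3 were lower and 0 higher, and of 8 for clearance and breakdown 4 were lower and 0 higher, with Ache, which splits acetylcholine, at -0.91 ± 0.08 (adjusted p = 2.26e-11).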

How the data were processed

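RNA of 42 samples was hybridised to Affymetrix MOE430A arrays. The deposited value table holds 1 intensity per probe set and array, between 1 and 22818.24, on a linear scale. The labels and file headers do not state how the authors summarised and scaled these intensities. Array medians lay between 285.83 and 330.39, and the number of arrays limits the precision.

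Probe sets were named by the platform annotation of 2016: 20380 had 1 gene symbol, 691 had several and 1555 were not listed. Groups came from the sample titles. Of each gene the probe set with the highest mean log2 value was kept. Values were taken as log2(intensity + 16) without a filter, and a model of group means was fitted to all 12393 genes with limma 3.58.1 in R 4.3.3 (eBayes with trend). P-values were Benjamini-Hochberg adjusted over all genes, with calls below 0.05. The fit was tested on simulated data first. Beside the receptors with a group mean of 400 or more, the rule named at most 2 called genes per direction and partner list from the class comparison. Receptors and lists were chosen with earlier results of these data known.

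Alternatives were quantile normalization, median centring, intensity filters, another offset, the mean over probe sets, blocks for replicate number, scan day and scan year, a Gapdh covariate, the compared arrays alone, group means as replicates, and leaving out arrays. Same-numbered arrays deviated together no more than others (median correlation 0.0106 over 273 pairs, against -0.00385 over 546), so replicate numbers were not taken as pairs. Some arrays pooled several animals.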

Additional observations from a re-analysis of the deposited data

Results flagged for a closer look

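The receptors below differed between lines in how far a region stood from cingulate cortex, by an interaction term in limma adjusted over all genes. Each value is a difference of log2 differences with 3 arrays in each of 4 groups. For amygdala against cingulate cortex, YFPH minus G30, Npy2r gave 4.05, Htr3a 2.80 and Oprk1 0.65. Npy2r was higher in amygdala than in cingulate cortex in the YFPH cells and lower in the G30 cells, while Htr3a fell in the G30 cells. For hippocampus against cingulate cortex, YFPH minus GIN, Npy2r gave 1.61, Htr5b 0.84 and Hrh1 0.79, and Sstr2 gave -1.80, Hrh3 -0.51 and Chrna3 -0.49. Sstr2 was near its lowest level in both GIN groups, so its value rests on the YFPH cells. The labels give the amygdala cells no class, and cell class, region and line cannot be told apart there. Chrna3 was called at an adjusted p of 0.0394 and lost the call in 13 of 23 alternatives, 8 of them leaving out 1 array, with a value of -0.183 over the mean of its probe sets and an adjusted p of 0.11 without the 3 unusual arrays. Hrh3 lost the call in 6 alternatives, 4 of them leaving out 1 array. Hrh1 kept it throughout but was 0.325 over the mean of its probe sets. Oprk1 had an adjusted p of 0.05 without YFPH_Amy array 2, and the hippocampal value of Npy2r 0.101 with the Gapdh covariate. Htr5b had an adjusted p of 0.0512 without YFPH_Hip array 2 and of up to 0.113 over all alternatives. Without the 3 unusual arrays the other 8 values kept their calls, at 4.29, 2.90 and 0.69 for Npy2r, Htr3a and Oprk1 in amygdala, and 1.74, 0.81, 0.94, -1.89 and -0.60 for Npy2r, Htr5b, Hrh1, Sstr2 and Hrh3 in hippocampus.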

How the results depend on the processing

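Across 133 results for single receptors and 3904 alternative values, 3567 kept direction and side of the threshold, 331 lost the call and 6 reversed. In the class comparison Chrna7 became 0.0033 and Htr1a 0.0299 with scan year as a block. With the mean over probe sets Drd4 became -0.0041 between GIN_Cg and G42_Cg, 0.0443 for G30_Cg and -0.0473 for sorted against unsorted cells, and Oprm1 became -0.0045 in the last. The causes were not tested, except that intensity filters leave fewer receptors, 32 at the 25th percentile and 12 at the 50th.

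Calls over all genes changed with the settings as well, so a lower count is not in itself particular to the receptors. Fits without a single array aside, they ran from 568 to 6621 for the class comparison (5592 in the main fit). For GIN_Cg against G42_Cg they ran from 1486 to 4257 (3367), and for G42_LGN from 1635 to 3273 (2645). Counts of receptors called changed by over 1.5 times as follows. With the 25th percentile filter they were 13 for the class comparison, 1 for CT6_Cg, 2 for YFPH_Hip, 3 for GIN_Hip, 2 for G30_Amy, 0 for G30_SS, 21 for any difference and 1 for a single high group. With the 50th percentile filter they were 4 for the class comparison, 3 for GIN_Cg against G42_Cg, 2 for G30_Cg, 1 for CT6_Cg, 2 each for YFPH_Hip, GIN_Hip, G42_LGN and sorted against unsorted cells, 3 for YFPH_Amy, 0 for G30_Amy, YFPH_SS, G30_SS and a single high group, and 7 for any difference. The class comparison called 2 with group means as replicates and 5 with scan year as a block. With the Gapdh covariate GIN_Cg against G42_Cg called 5, G42_LGN 3, CT6_Cg 1 and YFPH_SS 0. With the compared arrays alone YFPH_Hip called 3, GIN_Hip 1, and YFPH_SS and G30_SS 0. Without the 3 unusual arrays YFPH_Hip called 3, YFPH_Amy 2, G30_SS 0 and a single high group 1. CT6_Cg called 1 with offset 64 or scan day as a random block and 4 with the mean over probe sets, where YFPH_SS called 0. G30_SS called 2 with quantile normalization, median centring, offset 64 or the random block, and with scan day as a fixed block G30_SS and YFPH_SS called 0.

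Leaving out 1 array at a time gave 18 to 25 for the class comparison, 7 to 14 for GIN_Cg against G42_Cg (7 without GIN_Cg array 2), 5 to 10 for G30_Cg (5 without G30_Cg array 2), 0 to 2 for CT6_Cg, 3 to 6 for YFPH_Hip, 3 to 10 for GIN_Hip (10 without GIN_Hip array 1), 4 to 7 for G42_LGN (4 without G42_LGN array 3), 2 to 5 for YFPH_Amy, 3 to 8 for G30_Amy (8 without G30_Amy array 1), 0 to 1 for YFPH_SS and G30_SS, 7 to 10 for sorted against unsorted cells, 32 to 36 for any difference and 1 to 3 for a single high group. With the replicate block CT6_Cg called 1 and any difference 33, and the other counts were the same. Scan day as a fixed block could be fitted for 3 of the 12 comparisons and was not run for the others, and receptors below a filter have no value there. Signal over background limits the dimmer receptors, and array number the rest.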
